A study of Homo sapiens with 12 samples.

Results

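The genes described here carry cholesterol and fatty acid synthesis. They were chosen by name, with earlier results of these data known, as 33 enzymes, sensors and transcription factors of these pathways. Each was read by its symbol's probe set with the highest mean over 12 arrays. A probe set is a group of short probes summarised as 1 value. Of the 33, 30 were tested among 19775 genes in all. CYP51A1 and FADS1 share their probe sets with a further symbol and FDFT1 was not matched to a probe set, so these 3 were not analysed here. The RNA came from MCF-10A, an established non-tumorigenic line of human mammary epithelial cells, taken 48 h after cells were infected with retrovirus. There were 4 groups of 3 arrays, of which 3 expressed a form of Notch1 and the last received vector. NICD is the part of NOTCH1 that acts in the nucleus once released from the membrane, and the sample descriptions add gfp to its name without saying more. Notch1 L1601P+ΔP is the receptor with an L1601P change and the ΔP deletion, which removes the C-terminal PEST region, full-length Notch1 is the wild-type receptor, and every group, vector included, went through the same infection. The viral promoter, the share of infected cells and any selection are not stated in the labels. Replicates are called biological in the labels and their cultures are not described, and p-values cover only the spread among the arrays at hand, whose number limits the precision. In such bulk RNA, fewer cells of a type and less RNA per cell cannot be told apart.

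Cholesterol is built from acetyl-CoA through the mevalonate pathway to farnesyl diphosphate, then through squalene and lanosterol to the sterol rings. Fatty acids start from the same acetyl-CoA, which ACACA turns into malonyl-CoA and FASN extends to palmitate, before desaturases and elongases reshape the chain. Both arms are transcribed under SREBP factors, membrane proteins that SCAP carries from the endoplasmic reticulum to the Golgi for cleavage when sterols are low and that INSIG proteins hold back when sterols are high. SREBPs are known to act at promoters together with NF-Y, a factor that binds the CCAAT box.

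NOTCH1 itself was read by 2 probe sets. The dimmer one averaged 8.79 ± 0.04 with NICD, 8.74 ± 0.02 with Notch1 L1601P+ΔP, 9.16 ± 0.04 with full-length Notch1 and 6.54 ± 0.20 with vector (log2 signal, SD, n = 3), and all 3 Notch1 groups read above vector. The brighter one, used in the gene tests, averaged 9.72 with NICD, 9.5 with Notch1 L1601P+ΔP, 9.52 with full-length Notch1 and 9.44 with vector. For mammary epithelium of basal type, 8 epithelial markers were listed. Of these, 5 were tested and all were bright (the dimmest, EGFR, averaged 10.03 with NICD and 10.75 with vector). They did not move together with NICD, since KRT5 and KRT14 were higher than vector by 0.58 and 0.57 (adjusted p = 1.73e-06 and 2.5e-05), EGFR and SFN were lower (-0.72 and -0.36, adjusted p = 7.24e-07 and 7.24e-05), and CDH1 was not called (0.02, adjusted p = 0.886). Their linear sums were 47513 to 49923 with NICD, 49776 to 51817 with Notch1 L1601P+ΔP, 45289 to 46510 with full-length Notch1 and 42063 to 44217 with vector. ADIPOQ, which defines fat cells, lay at 3.08 with NICD and 3.12 with vector, near the bottom of the scale. Within groups the arrays correlated at 0.9953 to 0.9976. On the first principal component (69.7% of the variance) NICD lay at 38.4 to 41.5, Notch1 L1601P+ΔP at -2.7 to -1.26, full-length Notch1 at -18.9 to -17.1 and vector at -21.1 to -19.1.

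Because genes of these pathways are known SREBP targets, promoters are shown first, for 4 members that were lower with NICD and the 2 that were higher. SREBP control of each member was not tested. The 4 are not those with the largest falls, and SREBF1, SCAP and ELOVL6, which fell without a CCAAT box in their windows, are not among them. Each stretch is the 250 bases before a RefSeq start on GRCh38.p14, read 5′ to 3′ on the gene's strand. CCAAT (or its reverse complement) is in capitals, as is, in SREBF2, the sterol regulatory element searched as TCACNCCAC on both strands. The SCD stretch lies at chr10:100346983-100347232 (plus strand), FDPS at chr1:155308616-155308865 (plus strand), DHCR7 at chr11:71448394-71448643 (minus strand) and SREBF2 at chr22:41832855-41833104 (plus strand). LSS lies at chr21:46228775-46229024 (minus strand) and AACS at chr12:125065185-125065434 (plus strand).
SCD: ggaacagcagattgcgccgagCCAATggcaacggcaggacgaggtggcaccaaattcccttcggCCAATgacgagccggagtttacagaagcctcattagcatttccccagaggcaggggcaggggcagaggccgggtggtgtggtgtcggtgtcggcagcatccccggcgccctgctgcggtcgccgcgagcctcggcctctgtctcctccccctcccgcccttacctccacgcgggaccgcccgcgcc
FDPS: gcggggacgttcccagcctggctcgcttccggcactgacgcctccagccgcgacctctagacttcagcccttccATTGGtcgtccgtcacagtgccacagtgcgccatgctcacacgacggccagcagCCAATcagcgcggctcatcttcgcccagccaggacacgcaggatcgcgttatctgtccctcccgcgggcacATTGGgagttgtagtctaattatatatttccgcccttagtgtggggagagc
DHCR7: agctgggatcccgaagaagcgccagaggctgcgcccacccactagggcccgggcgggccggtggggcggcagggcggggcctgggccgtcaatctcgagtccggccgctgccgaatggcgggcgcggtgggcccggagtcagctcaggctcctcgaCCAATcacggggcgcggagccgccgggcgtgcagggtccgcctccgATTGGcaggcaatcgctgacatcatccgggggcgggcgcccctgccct
SREBF2: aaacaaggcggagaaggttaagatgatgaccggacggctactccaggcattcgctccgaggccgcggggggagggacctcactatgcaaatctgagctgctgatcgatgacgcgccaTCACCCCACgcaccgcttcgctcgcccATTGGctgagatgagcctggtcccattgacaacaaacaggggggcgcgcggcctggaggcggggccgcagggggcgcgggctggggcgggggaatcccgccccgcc
LSS: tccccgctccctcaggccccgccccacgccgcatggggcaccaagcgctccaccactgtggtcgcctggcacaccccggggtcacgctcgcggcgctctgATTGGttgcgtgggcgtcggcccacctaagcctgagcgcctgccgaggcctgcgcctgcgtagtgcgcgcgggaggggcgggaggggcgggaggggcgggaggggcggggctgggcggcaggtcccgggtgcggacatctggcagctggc
AACS: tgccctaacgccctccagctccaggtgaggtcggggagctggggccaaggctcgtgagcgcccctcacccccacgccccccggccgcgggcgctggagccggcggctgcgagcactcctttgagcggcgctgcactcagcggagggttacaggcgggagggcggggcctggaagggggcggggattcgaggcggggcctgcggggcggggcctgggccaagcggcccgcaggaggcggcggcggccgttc
FDPS holds 3 CCAAT boxes, SCD and DHCR7 hold 2 each, SREBF2 and LSS hold 1 each, and AACS holds none. DHCR7 has 2 starts in RefSeq, and the window of its other start holds no CCAAT box. The match to the sterol element in SREBF2 begins at base -133 relative to the start and its CCAAT box at base -106.

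Of the 30 tested members, 27 had a RefSeq window of 250 bases before to 50 after a start. CCAAT on either strand was in a window of 21 of the 27, or 77.8%, against 39.7% of all 27305 genes with a window. Those 27305 genes were neither limited to the genes tested on the arrays nor matched to the members in brightness. At least 2 boxes in 1 window were found in 51.9% of these members, against 12.9% of all genes. The strict sterol element was in 1 member, SREBF2, and in 1.39% of all genes. Some genes have several windows, and counted by window CCAAT was in 65.8% of the members' 38 windows, against 34.6% of all 35116. The core letters bound by RBPJ, the DNA partner of NICD, were searched as TGGGAA on both strands and found in ACACA, ACSS2, FDPS and MVK, while 28.1% of all genes hold them. These matches describe letters in a window, not occupied sites.

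The change with the active domain was read from NICD against vector. Any part of the gfp in the NICD descriptions cannot be told apart from that of the domain. Lipid synthesis genes were lower across both arms. Of the 30, 22 fell and 2 rose by limma (Benjamini-Hochberg adjusted p below 0.05, all genes counted), where 18.1% of all genes were called lower and 9.54% higher. Bright genes are called more often, and among the 8496 genes at least as bright as the dimmest member 33.1% were called lower and 12.5% higher. The members' median log2 fold change was -0.33, against -0.02 over all genes and -0.08 over those as bright. The changes were modest: the largest fall left 58.7% of the vector signal and the largest rise reached 176%. Of the 30, 22 had NICD arrays entirely below the vector arrays, as 24.6% of all genes did. The share without overlap among genes as bright is not given here. Since the members were chosen with earlier results of these data known, their counts beside these shares are not an independent test.

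**Figure D1:**
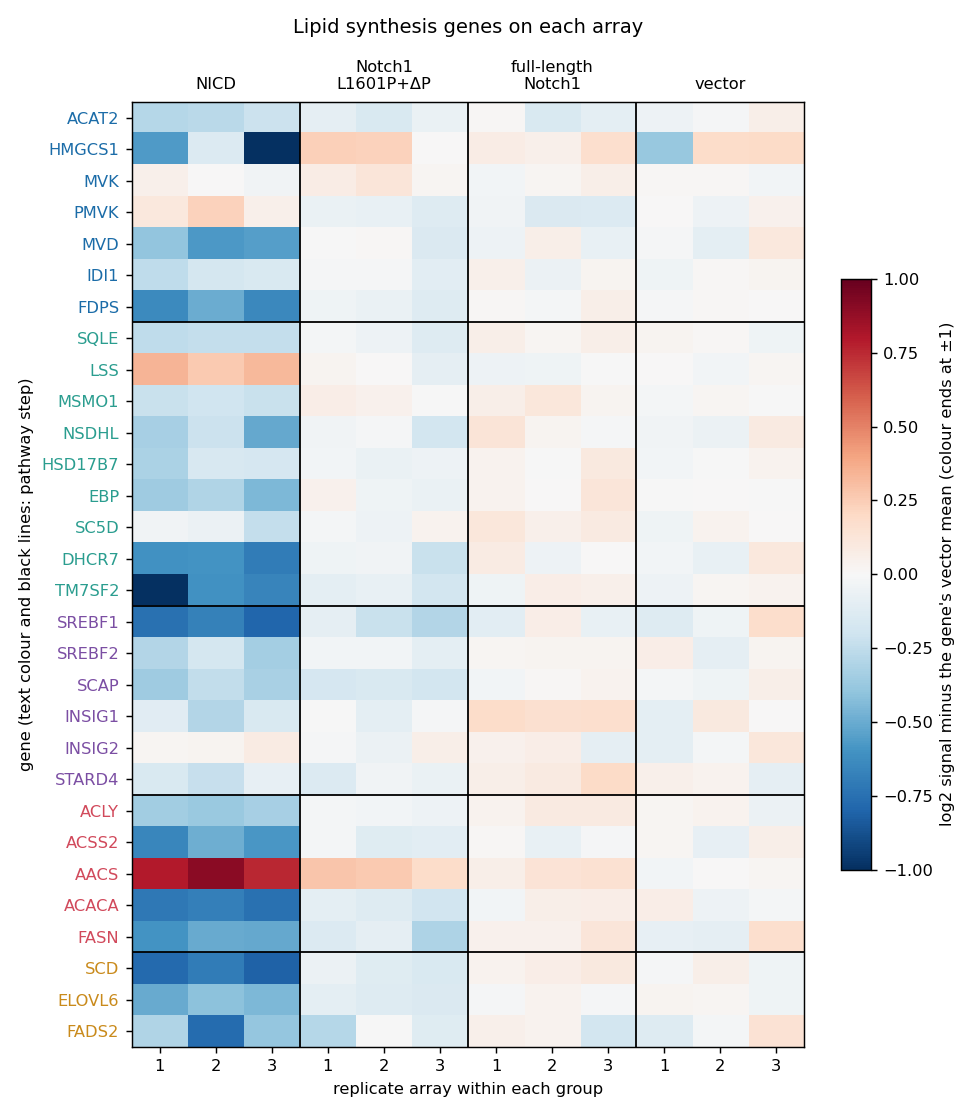
Log2 signal of each of the 30 genes (rows, coloured and divided by pathway step) on each of the 12 arrays (columns), as the difference from that gene's vector mean, blue lower and red higher. The 3 NICD columns are blue in most rows, with AACS and LSS red, and the HMGCS1 array of NICD replicate 3 and the TM7SF2 array of NICD replicate 1 lie beyond the end of the colour scale.

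Of the 7 mevalonate enzymes tested, 4 fell and none rose. FDPS, which makes farnesyl diphosphate, the branch point to sterols and prenyl groups, had log2 signals of 12.19, 12.33 and 12.19 with NICD, 12.79, 12.76 and 12.70 with Notch1 L1601P+ΔP, 12.84, 12.81 and 12.89 with full-length Notch1, and 12.81, 12.84 and 12.84 with vector. The NICD arrays lay below all others. The change was -0.59 ± 0.05 (log2, standard error, adjusted p = 3.01e-06). MVD, which makes isopentenyl diphosphate, fell by 0.51 ± 0.07 on the log2 scale (adjusted p = 0.000184). ACAT2, which condenses acetyl-CoA into acetoacetyl-CoA, fell by 0.26 (adjusted p = 0.00408) and the isomerase IDI1 by 0.20 (adjusted p = 0.0168). The ACAT2 call ended after cyclic loess (adjusted p = 0.0601). That of IDI1 ended under 6 of 18 alternatives, with a log2 fold change of -0.06 over the mean of its 4 probe sets. The IDI1 probe set used is of a type whose probes can also match related transcripts.

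HMGCS1, the synthase that commits acetoacetyl-CoA to the pathway, had the widest spread of any member with NICD and with vector (SD 0.65 and 0.33). Its log2 signals were 9.44, 9.86 and 8.59 with NICD, 10.24, 10.23 and 10.00 with Notch1 L1601P+ΔP, 10.08, 10.05 and 10.17 with full-length Notch1, and 9.63, 10.19 and 10.19 with vector. NICD replicate 3 was the lowest of all arrays, and the NICD and vector arrays overlapped. The difference of -0.70 ± 0.25 was not called (adjusted p = 0.0537) and was -0.35 without NICD replicate 3 (adjusted p = 0.174). It was called without NICD replicate 2 (-0.99, adjusted p = 0.00651), without vector replicate 1, without dim genes and over the mean of both probe sets (-0.41, adjusted p = 0.034). Its dimmer probe set, at 8.97 ± 0.02 with NICD and 9.09 ± 0.05 with vector, differed by -0.12 ± 0.06 and was not called (adjusted p = 0.192 over all probe sets).

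The kinases MVK and PMVK, between HMGCS1 and MVD, were not called. MVK, mevalonate kinase, had 8.87, 8.81 and 8.78 with NICD against 8.83, 8.83 and 8.79 with vector, a difference of 0.01 ± 0.05 with a 95% interval of -0.10 to 0.12. Its 3 dimmer probe sets differed by -0.39, -0.20 and -0.02, only the first called, and the mean over all 4 was called lower (-0.15, adjusted p = 0.0431). PMVK, the next kinase, had 9.79, 9.92 and 9.74 with NICD against 9.69, 9.64 and 9.73 with vector. Its arrays did not overlap, but the difference of 0.13 ± 0.06 was not called (adjusted p = 0.132), except after cyclic loess (0.23, adjusted p = 0.00792).

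In the squalene and sterol ring steps, 7 of 9 genes fell and 1 rose with NICD. TM7SF2, a sterol reductase, had log2 signals of 6.47, 6.89 and 6.84 with NICD, 7.40, 7.43 and 7.32 with Notch1 L1601P+ΔP, 7.46, 7.57 and 7.55 with full-length Notch1, and 7.45, 7.52 and 7.54 with vector. NICD replicate 1 was the lowest, and all 3 NICD arrays lay below every other array. TM7SF2 fell by 0.77 ± 0.09 (adjusted p = 3.96e-05). DHCR7, which makes the last conversion to cholesterol, had 9.45, 9.45 and 9.35 with NICD, 10.01, 10.01 and 9.83 with Notch1 L1601P+ΔP, 10.14, 10.00 and 10.06 with full-length Notch1, and 10.03, 9.97 and 10.15 with vector. It fell by 0.63 ± 0.07 (adjusted p = 1.63e-05), and the second DHCR7 probe set by 0.64 ± 0.07. The NICD arrays lay below all others.

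EBP, the sterol isomerase, fell by 0.37 (adjusted p = 0.000298) and NSDHL, a demethylating dehydrogenase, by 0.36 (adjusted p = 0.00491). SQLE, squalene epoxidase and a rate-limiting step, had 11.68, 11.69 and 11.69 with NICD against 11.96, 11.94 and 11.89 with vector and fell by 0.24 (adjusted p = 0.00192). Of its 3 dimmer probe sets 2 were called lower (-0.48 and -0.24) and the dimmest was not (-0.29, adjusted p = 0.0722 over all probe sets). MSMO1, the methylsterol oxidase, and HSD17B7, a ketosteroid reductase, both fell by 0.22 on the log2 scale (adjusted p = 0.0035 and 0.00969). The HSD17B7 call ended after cyclic loess (-0.12, adjusted p = 0.118), and its only probe set is of a type whose probes can also match related transcripts. SC5D, the desaturase before DHCR7, differed by -0.11 ± 0.06 and was not called (adjusted p = 0.203), except over the mean of its probe sets (-0.16, adjusted p = 0.0449).

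LSS, which closes squalene epoxide into lanosterol, went the other way. Its log2 signals were 10.69, 10.61 and 10.67 with NICD, 10.37, 10.35 and 10.26 with Notch1 L1601P+ΔP, 10.29, 10.31 and 10.34 with full-length Notch1, and 10.35, 10.32 and 10.37 with vector. The NICD arrays stood above all 9 others, which overlapped. The rise was 0.31 ± 0.05 (adjusted p = 0.000431) on the brightest probe set, while the other 2 differed by 0.07 and 0.10 and were not called (adjusted p = 0.614 and 0.585 over all probe sets). SQLE before it and MSMO1 and NSDHL after it were lower in the same arrays.

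Among the 6 genes of sterol sensing, 4 fell and none rose with NICD. SREBF1, the SREBP that drives fatty acid genes, had log2 signals of 7.70, 7.77 and 7.65 with NICD, 8.35, 8.21 and 8.15 with Notch1 L1601P+ΔP, 8.33, 8.51 and 8.37 with full-length Notch1, and 8.31, 8.40 and 8.62 with vector. All NICD arrays were below all others, and the change was -0.74 ± 0.08 (adjusted p = 2.34e-05). A dimmer SREBF1 probe set differed by -0.24 and was not called (adjusted p = 0.118 over all probe sets), and the mean of both was also called lower (-0.49). SREBF2, which favours cholesterol genes, had 8.63, 8.75 and 8.58 with NICD against 8.99, 8.84 and 8.95 with vector and fell by 0.27 (adjusted p = 0.0036), with its other probe sets at -0.34 (called) and -0.07 (not called). SCAP, the escort of both, had 8.68, 8.79 and 8.71 with NICD against 9.02, 8.99 and 9.10 with vector and fell by 0.31 (adjusted p = 0.000552). NICD and vector arrays did not overlap for SREBF2 or SCAP.

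The INSIG proteins hold SCAP in the endoplasmic reticulum. INSIG1, itself an SREBP target, had 9.87, 9.69 and 9.83 with NICD, 9.98, 9.88 and 9.97 with Notch1 L1601P+ΔP, 10.17, 10.14 and 10.15 with full-length Notch1, and 9.88, 10.08 and 9.98 with vector. With NICD it was lower than vector by 0.19 (adjusted p = 0.0473), a call that ended under 13 of 18 alternatives, with an adjusted p of up to 0.395. Of its other probe sets, 1 was called lower (-0.35, adjusted p = 0.00711 over all probe sets) and 1 was not (-0.13, adjusted p = 0.234). Its arrays with full-length Notch1 were the highest of all 12, at 0.17 above vector, which was not called (adjusted p = 0.879). INSIG2 had 8.21, 8.22 and 8.27 with NICD against 8.10, 8.17 and 8.30 with vector, a difference of 0.04 ± 0.07 with a 95% interval of -0.10 to 0.18. STARD4, a cytosolic sterol carrier, differed by -0.15 ± 0.06 and was not called (adjusted p = 0.0875), except with a trended, robust variance (adjusted p = 0.0393) and without vector replicate 3 (adjusted p = 0.0493).

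In the supply of acyl precursors and fatty acid synthesis, 4 of 5 genes fell and 1 rose with NICD. ACACA, the carboxylase that makes malonyl-CoA, had log2 signals of 10.07, 10.09 and 10.04 with NICD, 10.68, 10.65 and 10.59 with Notch1 L1601P+ΔP, 10.76, 10.84 and 10.85 with full-length Notch1, and 10.85, 10.73 and 10.76 with vector. It fell by 0.71 ± 0.05 (adjusted p = 3.84e-07), to 61% of vector, on its bright probe set, while a dimmer one at 6.95 ± 0.13 with NICD and 7.02 ± 0.05 with vector was not called (-0.06, adjusted p = 0.618 over all probe sets). FASN, fatty acid synthase, had 9.78, 9.87 and 9.86 with NICD against 10.29, 10.29 and 10.54 with vector and fell by 0.54 (adjusted p = 0.000172). Its dim second probe set differed by 0.13, and over the mean of both the call ended (-0.20, adjusted p = 0.077).

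The enzymes that supply acetyl-CoA were lower as well. ACLY, which splits citrate in the cytosol, averaged 11.98 ± 0.02 with NICD and 12.33 ± 0.05 with vector (SD, n = 3 each) and fell by 0.35 (adjusted p = 0.000104), and both dimmer probe sets fell by 0.51 and 0.56. ACSS2, which activates acetate, had 8.35, 8.51 and 8.42 with NICD against 9.02, 8.92 and 9.06 with vector and fell by 0.57 (adjusted p = 1.21e-05).

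AACS, which activates acetoacetate, a ketone body, for lipid synthesis, was the member that rose most. Its log2 signals were 10.76, 10.87 and 10.72 with NICD, 10.25, 10.23 and 10.15 with Notch1 L1601P+ΔP, 10.03, 10.11 and 10.12 with full-length Notch1, and 9.94, 9.98 and 9.99 with vector. No pair of the 4 groups overlapped. The rise with NICD was 0.82 ± 0.06 (adjusted p = 1.76e-07), or 1.76-fold, and was called under all 18 alternatives. AACS was read by 1 probe set.

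All 3 tested genes of desaturation and elongation fell with NICD. SCD, which puts the double bond into stearate to make oleate, had log2 signals of 11.63, 11.71 and 11.59 with NICD, 12.35, 12.28 and 12.25 with Notch1 L1601P+ΔP, 12.44, 12.47 and 12.50 with full-length Notch1, and 12.39, 12.46 and 12.36 with vector. NICD stood well below the other groups, at 59% of vector. The fall was 0.76 ± 0.05 (adjusted p = 2.31e-07), and the other 3 SCD probe sets fell by 0.76, 0.85 and 0.89. ELOVL6, which lengthens palmitate, had 10.50, 10.60 and 10.56 with NICD against 11.03, 11.02 and 10.96 with vector and fell by 0.45 (adjusted p = 1.16e-05), with its other 2 probe sets at -0.38 and -0.43. FADS2, a desaturase of polyunsaturated fatty acids, had 8.37, 7.90 and 8.28 with NICD against 8.54, 8.65 and 8.81 with vector and fell by 0.48 (adjusted p = 0.00925).

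**Figure D2:**
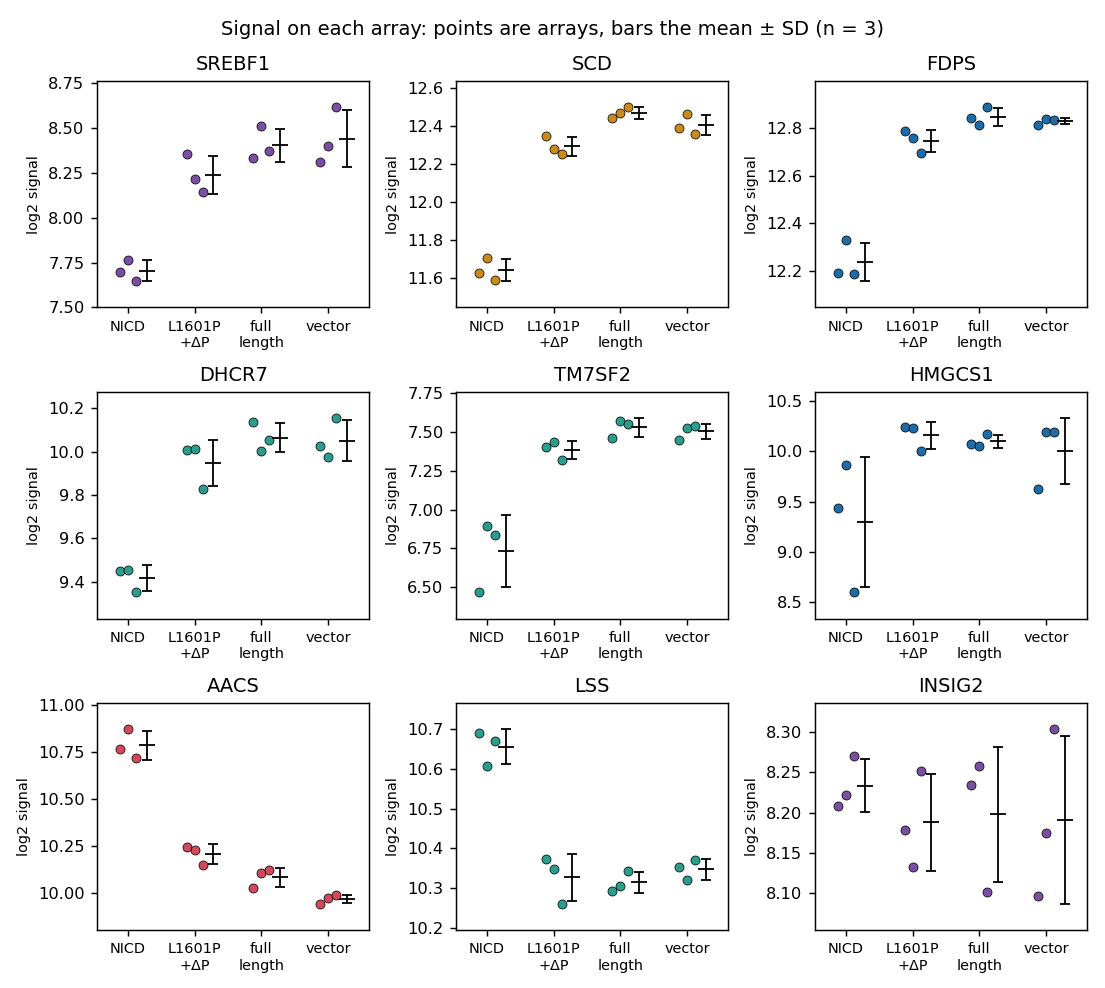
Log2 signal (y axes, a scale for each gene that does not start at 0) of 9 lipid genes on each array, grouped along x as NICD, Notch1 L1601P+ΔP, full-length Notch1 and vector, with the mean ± SD beside the points. SREBF1, SCD, FDPS, DHCR7 and TM7SF2 are lowest on all NICD arrays, AACS and LSS are highest there, HMGCS1 spreads widely and INSIG2 overlaps in all groups.

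The 30 members have 63 probe sets, and the 33 that were not used belong to 18 genes. Of these, 18 were called lower with NICD and 0 higher. In the same fit 12.6% of all probe sets were called lower and 6.75% higher, and of the 29392 at least as bright as the dimmest of the 33, 21% lower and 9.71% higher. The balance of calls depended on the scaling of the arrays. Over all called genes 34.6% were higher with NICD, and 51.6% after cyclic loess. The members stood at 3 higher and 18 lower after cyclic loess, with a median of -0.23, and ACAT2, HSD17B7, IDI1 and INSIG1 were no longer called. Of all genes, 26.2% were called in either direction after cyclic loess and 27.6% in the main test. The 3′ minus 5′ difference of the ACTB controls was 0.39 ± 0.05 with NICD and 0.30 ± 0.05 with vector, that of the GAPDH controls was -0.04 ± 0.02 with NICD and -0.011 ± 0.01 with vector (log2, SD, n = 3), and their part in the result was not tested.

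Seen by promoter, 16 of the 21 tested members with a CCAAT box fell with NICD, 1 rose and 4 were not called. Of the 6 members without one, SREBF1, SCAP and ELOVL6 fell, AACS rose, and PMVK and INSIG2 were not called. Members not called lower were found both with and without a box. LSS, which rose, holds 1 box, and MVK, not called by its brightest probe set, holds 5. Over the mean of its probe sets MVK was called lower (-0.15, adjusted p = 0.0431 by limma). A link between boxes and the change was not tested.

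**Figure D3:**
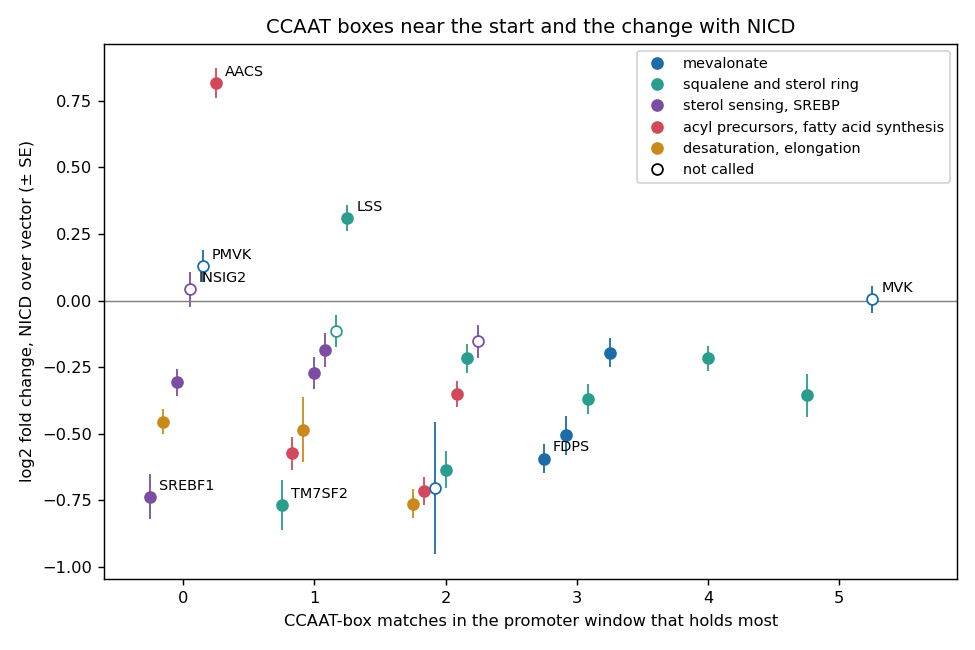
Log2 fold change of NICD over vector (y axis, bars are the standard error) against the number of CCAAT matches in the promoter window that holds most (x axis, points spread sideways within a number), for the 27 tested members with a window. Falls appear at 0 to 5 boxes, AACS has no box and MVK has 5 boxes with a change near 0 by its brightest probe set.

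Notch1 L1601P+ΔP against vector asks what the mutated receptor changes. Of the 30 members 1 rose and 0 fell by limma, where 2.16% and 2.95% of all genes did. Without adjustment, at p under 0.05, AACS was higher and SREBF1, SCAP, ACACA, FASN and ELOVL6 were lower. The share of all genes at this looser threshold is not given here. The member that rose was AACS, at 0.24 ± 0.06 (adjusted p = 0.026) or 118% of vector, and its arrays did not overlap with vector. That call ended when only the 6 arrays compared were fitted and without Notch1 L1601P+ΔP replicate 1 or 2 or any of the vector replicates (adjusted p up to 0.105). The members' median was -0.07, against -0.01 over all genes, and -0.01 after cyclic loess. Over all called genes 42.3% were higher, and 58.4% after cyclic loess.

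The largest differences among uncalled members were those of SREBF1, FASN and SCAP. SREBF1 differed by -0.20 ± 0.08, with overlapping arrays (adjusted p = 0.192). FASN had 10.23, 10.28 and 10.07 with Notch1 L1601P+ΔP against 10.29, 10.29 and 10.54 with vector, a difference of -0.18 ± 0.08 (adjusted p = 0.214). SCAP had 8.87, 8.88 and 8.85 with Notch1 L1601P+ΔP against 9.02, 8.99 and 9.10 with vector, a difference of -0.17 ± 0.05 (adjusted p = 0.0848), which was called without dim genes (adjusted p = 0.0466) and with a trended, robust variance (adjusted p = 0.0452). The 95% interval for SCD was -0.23 to 0.00 and for ACACA -0.25 to -0.02. In all, 9 members lay entirely below vector and 2 entirely above, where 17.6% and 10.9% of all genes did. The share without overlap among genes as bright as the members is not given here.

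**Figure D4:**
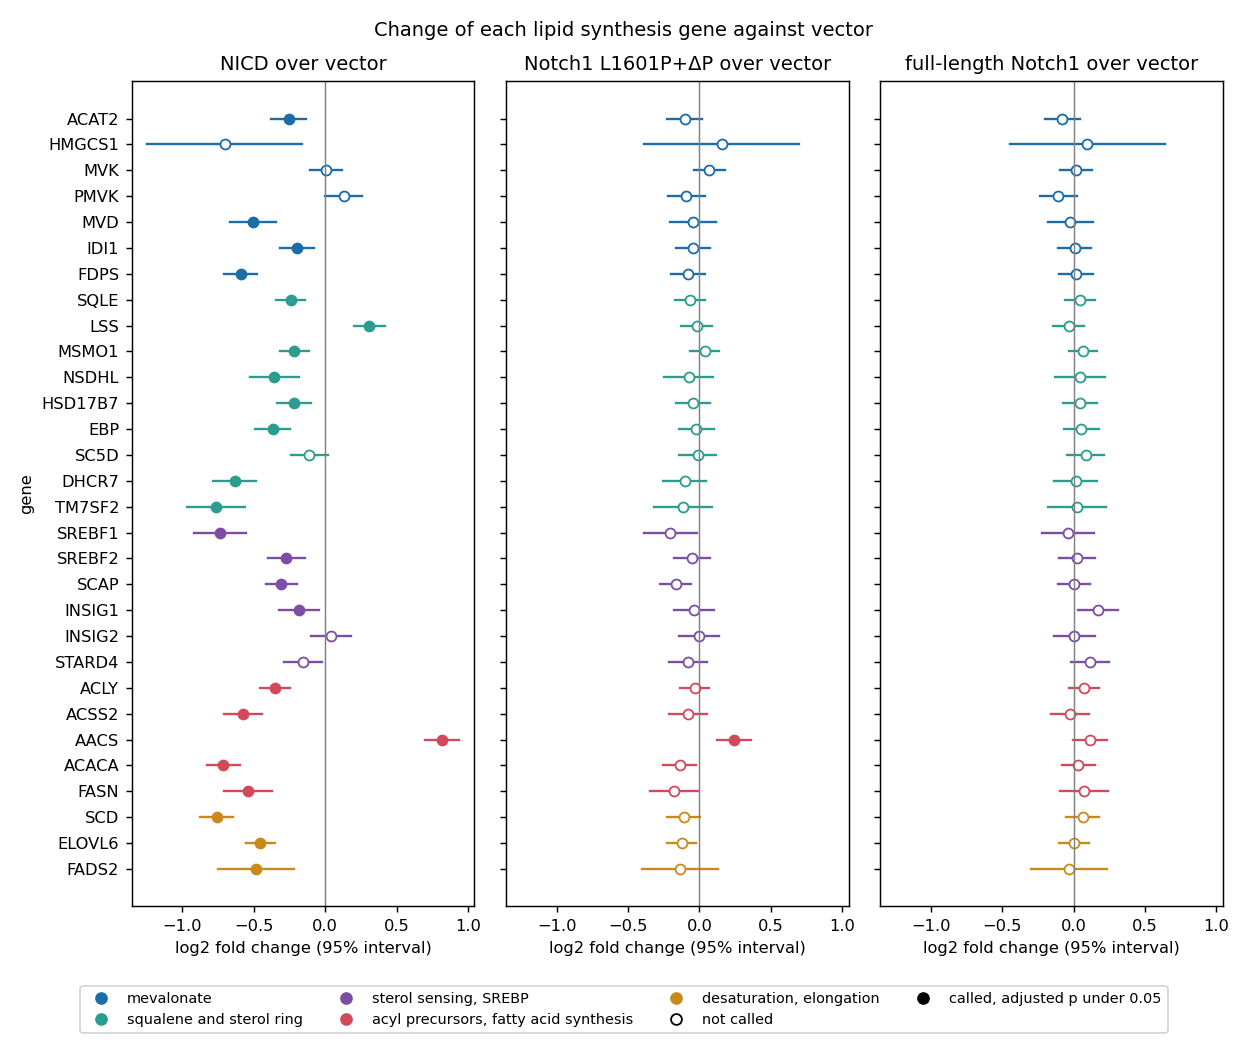
Log2 fold change over vector with its 95% interval (x axis) for each of the 30 genes (y axis, coloured by pathway step) with NICD, Notch1 L1601P+ΔP and full-length Notch1, filled where called. With NICD 24 points are filled, with Notch1 L1601P+ΔP only AACS, and with full-length Notch1 none.

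Full-length Notch1 against vector asks what the intact receptor changes. Of the 30 members 0 were called by limma, where 0.0303% of all genes were called higher and 0.00506% lower. Without adjustment, at p under 0.05, 1 member was higher, INSIG1 as given above, and 0 were lower, and the share of all genes at that threshold is not given here. Differences ran from -0.11 for PMVK to 0.17 for INSIG1, with a median of 0.03. The 95% interval was -0.05 to 0.18 for SCD, -0.10 to 0.14 for FDPS and -0.22 to 0.15 for SREBF1. The 3 comparisons with vector share its arrays.

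Between constructs, NICD was set against full-length Notch1. Any part of the gfp in the NICD descriptions cannot be told apart from that of the domain here. Of the members, 25 were lower and 3 higher with NICD, where 17% and 10.1% of all genes were called. The share called among genes as bright as the members is not given here. The 3 higher were AACS (0.70 ± 0.06, adjusted p = 8.33e-07), LSS (0.34 ± 0.05, adjusted p = 0.000198) and PMVK (0.24 ± 0.06, adjusted p = 0.0092). PMVK had 9.79, 9.92 and 9.74 with NICD against 9.65, 9.54 and 9.55 with full-length Notch1. SCD was lower by 0.83 (adjusted p = 1.09e-07), TM7SF2 by 0.79 (adjusted p = 3.1e-05) and ACACA by 0.75 (adjusted p = 2.54e-07). HMGCS1 was called lower here (-0.80 ± 0.25, adjusted p = 0.0309), and the call ended under 7 of 18 alternatives. INSIG1 was lower by 0.36 (adjusted p = 0.00104) and STARD4 by 0.27 (adjusted p = 0.00565), with STARD4 not called after cyclic loess (-0.17, adjusted p = 0.0801). MVK and INSIG2 were not called. Calls held under all 18 alternatives for 21 of the 28, and ended under at least 1 for ACAT2, FADS2, FASN, HMGCS1, IDI1, SC5D and STARD4. After cyclic loess 19 were lower and 3 higher, where 25.2% of all genes were called in either direction, against 27% in the main test. Among all called genes the higher calls made up 37.3%, and 52.9% after cyclic loess.

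NICD against Notch1 L1601P+ΔP compares the group given the free domain with the group given the mutated receptor directly. Here too, any part of the gfp in the NICD descriptions cannot be told apart from that of the domain. Of the members, 18 were lower and 3 higher with NICD, where 11.1% and 8.73% of all genes were called, and 19.1% and 13.4% of those at least as bright as the dimmest member. By step, 3 of 7 mevalonate genes, 7 of 9 sterol ring genes, 2 of 6 sensing genes, 4 of 5 fatty acid synthesis genes and 2 of 3 desaturation and elongation genes were lower. SCD differed by -0.65 ± 0.05 (adjusted p = 1.81e-06), ACACA by -0.58 ± 0.05 (adjusted p = 4.93e-06), FDPS by -0.51 ± 0.05 (adjusted p = 1.98e-05) and SREBF1 by -0.53 ± 0.08 (adjusted p = 0.000561). AACS was higher by 0.58 (adjusted p = 8.52e-06), LSS by 0.33 (adjusted p = 0.000415) and PMVK by 0.22 (adjusted p = 0.0185). SCAP (-0.14, adjusted p = 0.078) and INSIG1 (-0.15, adjusted p = 0.137) were not called. Calls held under all 18 alternatives for 14 of the 21, and ended under at least 1 for FASN, HMGCS1, HSD17B7, NSDHL, PMVK, SQLE and SREBF2.

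Notch1 L1601P+ΔP against full-length Notch1 asks what the receptor's mutations add. Of the members 0 were called by limma, where 1.86% of all genes were called higher and 1.86% lower. Without adjustment, at p under 0.05, 1 member (AACS) was higher and 9 were lower. The share of all genes at this looser threshold is not given here, so these counts have no background to be set against. With a trended, robust variance 6 were lower, namely ACACA, FASN, INSIG1, SCAP, SCD and STARD4. That setting called 6.35% of all genes, in either direction, against 3.72% in the main test. In the main test FASN differed by -0.25 ± 0.08 (adjusted p = 0.106), INSIG1 by -0.21 ± 0.06 (adjusted p = 0.103) and SCD by -0.18 ± 0.05 (adjusted p = 0.0965). SCD had 12.35, 12.28 and 12.25 with Notch1 L1601P+ΔP against 12.44, 12.47 and 12.50 with full-length Notch1, without overlap. In all, 14 members lay entirely below full-length Notch1 and 1 entirely above, where 16.2% and 11% of all genes did. The share without overlap among genes as bright as the members is not given here. The members' median was -0.10, against -0.01 over all genes. That of the members became -0.04 after cyclic loess and -0.05 over the mean of all probe sets. Over all called genes 50.1% were higher, and 62.5% after cyclic loess.

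Genes around the pathway were read from 6 further lists, also chosen with earlier results of these data known. With NICD, 18.1% of all genes were called lower and 9.54% higher. Of those at least as bright as the dimmest lipid synthesis gene, 33.1% were called lower with NICD. With Notch1 L1601P+ΔP, 2.95% of all genes were called lower and 2.16% higher. The counts below are to be set beside these shares. All 6 genes of citrate and NADPH supply fell with NICD, with a median of -0.35. TKT, a transketolase, fell by 0.60 (adjusted p = 1.42e-06), ME1, which makes NADPH from malate, by 0.47 (adjusted p = 2.27e-05), the mitochondrial citrate carrier SLC25A1 by 0.39 (adjusted p = 0.00205) and PGD by 0.32 (adjusted p = 0.00199). Of 13 genes of the isoprenoid branches 6 fell and none rose, with PDSS2, which makes the ubiquinone tail, at -0.53 (adjusted p = 1.39e-05), GGPS1 at -0.29 and PDSS1 at -0.28 (adjusted p = 0.00508 and 0.000696). Of 7 tested genes (9 listed) of SREBP processing and sterol-regulated degradation 4 fell and none rose, with ERLIN1 at -0.32 (adjusted p = 0.000273) and the protease MBTPS1, which makes the first cut in SREBP, at -0.16 (adjusted p = 0.0483). With Notch1 L1601P+ΔP each of these 3 lists had 1 call, all lower: TKT (-0.20, adjusted p = 0.0437), PDSS2 (-0.25, adjusted p = 0.0274) and ERLIN1 (-0.20, adjusted p = 0.033).

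Of 14 tested genes (15 listed) of sterol uptake, storage and efflux, 6 fell and 1 rose with NICD. SCARB1, a lipoprotein receptor, fell by 1.06 (adjusted p = 1.64e-07), the lysosomal sterol carrier NPC2 by 0.66 (adjusted p = 5e-07), the lysosomal lipase LIPA by 0.45 (adjusted p = 1.71e-05) and SOAT1, which esterifies cholesterol, by 0.30 (adjusted p = 0.00184). CYP27A1, a sterol hydroxylase, rose by 0.22 (adjusted p = 0.0213). With Notch1 L1601P+ΔP, SCARB1 fell by 0.33 (adjusted p = 0.0185), the 1 call of the 14, where 2.95% of all genes were called lower.

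Of 21 further genes (23 listed) of fatty acid elongation, activation and glyceride synthesis, 12 fell and 2 rose with NICD. FADS3, a relative of the FADS desaturases, fell by 1.07 (adjusted p = 1.49e-08), the phosphatidate phosphatases LPIN1 and LPIN2 by 0.80 and 0.45 (adjusted p = 3.86e-07 and 0.000548) and ACSL1, which activates long-chain fatty acids, by 0.49 (adjusted p = 8.48e-05). The elongase ELOVL5 and the desaturase SCD5 rose by 0.37 and 0.24 (adjusted p = 0.000188 and 0.00237), while SCD, which like SCD5 desaturates saturated chains, fell. With Notch1 L1601P+ΔP, where 2.95% of all genes were called lower and 2.16% higher, 3 of the 21 fell and 2 rose. These were LPIN2 (-0.41), LPIN1 (-0.37) and FADS3 (-0.34), and SCD5 (0.26) and ELOVL5 (0.21), with adjusted p of 0.00711, 0.00273, 0.00346, 0.00962 and 0.041.

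Fatty acid oxidation is the opposite route. Of its 15 tested genes (16 listed) 8 fell and 3 rose with NICD, with a median of -0.28. ECI2 and ECI1, isomerases for unsaturated chains, fell by 0.63 and 0.47 (adjusted p = 7.63e-06 and 2.6e-05), HADHB, a subunit of the trifunctional protein, by 0.62 (adjusted p = 9.19e-07) and CPT1A, which admits acyl groups to mitochondria, by 0.49 (adjusted p = 3.3e-05). PDK4, a kinase that turns off pyruvate dehydrogenase, rose by 1.50 (adjusted p = 3.25e-08), ACAA2 by 0.28 (adjusted p = 0.00108) and ACADVL by 0.19 (adjusted p = 0.0241). PDK4 also rose with Notch1 L1601P+ΔP, by 0.53 (adjusted p = 0.00315), and ECI2 fell by 0.30 (adjusted p = 0.0161). These were the only calls of this list there, where 2.16% of all genes were called higher and 2.95% lower. With full-length Notch1, 0 genes of the 6 lists were called by limma (without adjustment, at p under 0.05, MYLIP, CYP27A1 and SCD5 were higher and FNTB and PPARA lower, with no share of all genes at that threshold given here).

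**Figure D5:**
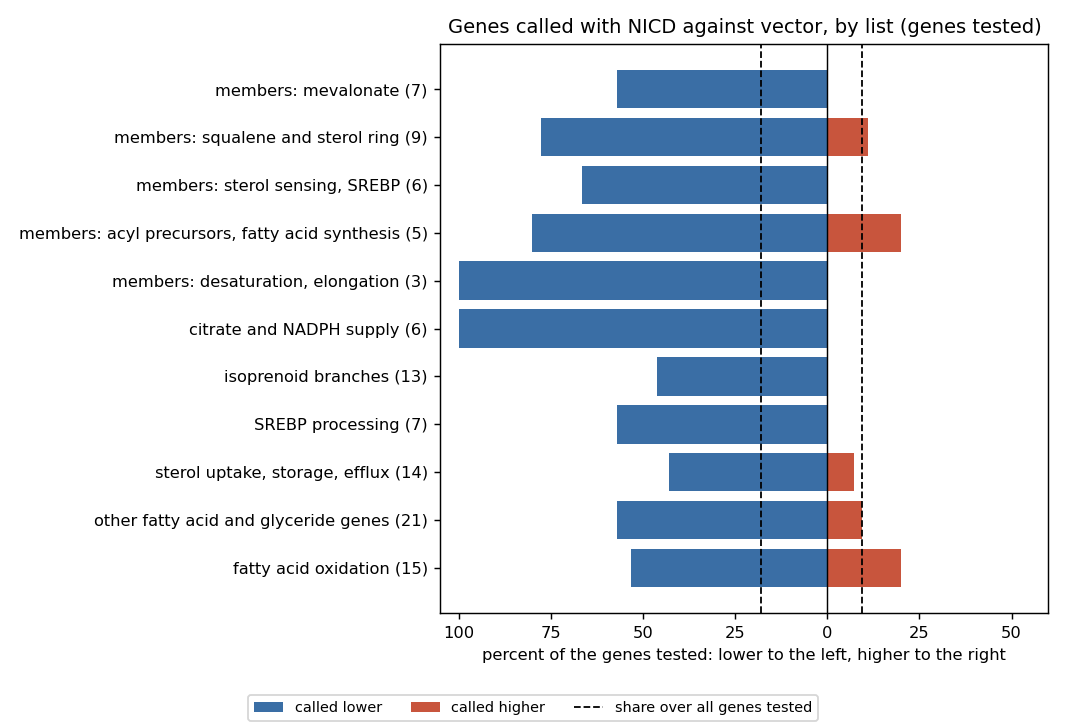
Percent of the tested genes of each list that were called lower (left of 0) or higher (right of 0) with NICD against vector, for the 5 steps of lipid synthesis and 6 surrounding lists, with the number tested in brackets and dashed lines at the 18.1% lower and 9.54% higher over all genes. Each list lies beyond the dashed line on the lower side, and the isoprenoid and uptake lists (6 of 13 and 6 of 14 lower) lie nearest to the 33.1% called lower among genes at least as bright as the dimmest member, which is not drawn.

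Markers of other cells were read beside these results. Of 5 fat cell markers, FABP4 was higher with NICD (5.76 ± 0.25) and Notch1 L1601P+ΔP (6.14 ± 0.12) than with vector (5.01 ± 0.23), CIDEC was higher with NICD (adjusted p = 0.000248), and ADIPOQ, PLIN1 and LEP were not called. Their summed linear signal was 201 to 211 with NICD, 214 to 230 with Notch1 L1601P+ΔP, 154 to 181 with full-length Notch1 and 146 to 173 with vector. No marker of fibroblasts, endothelium, blood or liver cells (0 of 12, by limma) was called with NICD against vector (1 without adjustment at p under 0.05, COL3A1 at 0.14, with no share of all genes at that threshold given here). The part of these markers in the lipid results was not tested.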

How the data were processed

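The deposited table holds log2 signals of 54675 probe sets on 12 Affymetrix arrays, and the submitters' processing notes name RMA, which corrects background, equalises probe distributions between arrays and summarises probe sets, and limma, with versions not given in the sources used here. Such equalising removes a shift shared by most genes, and dim signals are compressed. Symbols came from the platform annotation: 41097 probe sets carried 1 symbol, 1801 several and 11777 none listed, 62 of which are array controls. The probe set with the highest mean stood for its gene. Group means were fitted in limma 3.58.1 (R 4.3.3) over all 12 arrays and 19775 genes, with two-sided tests adjusted by the Benjamini-Hochberg method within each of 6 comparisons and a call at 0.05. The 8 residual degrees of freedom were raised by 4.09 through moderation, and the fit was tested on simulated data. Errors are the SD of 3 arrays or the standard error of the fit. All members could be named, and from each surrounding list up to 4 called genes per direction with the largest change. Members and lists were chosen with earlier results of these data known. Promoter windows are from RefSeq (GRCh38.p14). Alternatives were cyclic loess, the mean of all probe sets, no dim genes (mean log2 of at least 5), a trended robust variance, only the groups compared, a replicate block and each array left out.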

Additional observations from a re-analysis of the deposited data

How the results depend on the processing

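Each comparison was refitted under 18 alternatives, 12 of which leave out 1 array. The number of members called with NICD against vector was 24, and 21 to 25 under the 6 alternatives that keep all replicates, and 19 of the 24 were called under all 18. Of all genes in each fit, 27.6% were called in the main test and 22.9% to 38.9% under those 6. Leaving out 1 array gave 22 to 25 members for NICD against vector, 23 to 28 for NICD against full-length Notch1, 16 to 21 for NICD against Notch1 L1601P+ΔP, 0 to 1 for Notch1 L1601P+ΔP against vector, and 0 to 0 for full-length Notch1 against vector and for Notch1 L1601P+ΔP against full-length Notch1. The shares of all genes called without 1 array are not given here. For Notch1 L1601P+ΔP against vector the count of 1 became 0 with only the 2 groups compared, and 2 without dim genes and 2 with a trended robust variance. Of all genes in each fit, 5.12% were called in the main test, and 3.63%, 9.27% and 8.17% under these alternatives, in order. For Notch1 L1601P+ΔP against full-length Notch1 the count of 0 became 6 with a trended robust variance, while the share of all genes called rose from 3.72% to 6.35%. MVK changed sign with NICD against vector, being 0.01 and not called by its brightest probe set and -0.15 over the mean of all its probe sets. With the replicate block, 23 members were called with NICD against vector, 27 against full-length Notch1 and 20 against Notch1 L1601P+ΔP, 1 for Notch1 L1601P+ΔP against vector and 0 in the other comparisons. Of all genes, the block called 26.1% with NICD against vector, 25.3% against full-length Notch1 and 18.4% against Notch1 L1601P+ΔP. It called 4.27% for Notch1 L1601P+ΔP against vector, 2.95% for Notch1 L1601P+ΔP against full-length Notch1 and 0.0202% for full-length Notch1 against vector. Same-numbered samples showed little shared deviation (correlations of -0.115 to 0.162, 1 of 18 over 0.1), and differently numbered pairs reached 0.14. Whether any arrays were cultured or processed together was not tested. The median of the members with NICD against vector was -0.23 after cyclic loess and -0.31 over the mean of all probe sets. The cause of these changes was not tested. Low signal limits the dim probe sets, the dimmest being those of FADS2 (5.16 with NICD, called lower), IDI1 (5.56), EBP (5.76), LSS (5.98) and MVK (6.03), the last 4 not called.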
